A study of Homo sapiens with 10 samples.

Results

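The genes for 10 cytokines and chemokines that B cells can make were followed in clones of U2932, a human cell line established from a diffuse large B cell lymphoma. They are the tumour necrosis factor family ligands TNF, LTA and LTB, the chemokines CCL3, CCL4, CCL5, CCL17 and CCL22, and the interleukins IL6 and IL10. They were chosen by symbol, and all 10 were found among the 21174 genes of the count table. The series holds 5 libraries of clones labelled CREBBP+/+ (WT_1 to WT_5) and 5 of clones labelled CREBBP+/- (Het_6 to Het_10), all in the same line and medium and with no further treatment named. How the CREBBP allele was altered, how clones were derived and whether libraries came from separate cultures is not stated in the labels. A p-value here therefore reflects how far these particular libraries spread, which may be technical. The CREBBP+/- columns are numbered 6 to 10, and the labelled clones of that genotype carry other numbers.

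Cytokines and chemokines are secreted or membrane-bound proteins through which lymphocytes direct other cells. TNF, LTA and LTB signal through receptors that switch on NF-kappaB, a transcription factor family that in turn drives many cytokine genes, and lymphotoxin from B cells maintains the architecture of lymphoid follicles. CCL3 and CCL4 are released by B cells after stimulation of their antigen receptor, CCL17 and CCL22 attract T cells through the receptor CCR4, and IL10 restrains inflammation through STAT3. CREBBP, the acetyltransferase altered here, is a coactivator used by NF-kappaB, CREB and other factors.

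Of the 10 genes, 9 had enough reads to be tested and IL6 was too low, with 0 to 7 counts per library. Library totals ran from 10615977 to 23020694 counts. Levels are given as CPM, the count relative to a library total scaled by TMM, which corrects for differences in RNA composition. CREBBP itself ran from 103 to 136 CPM in CREBBP+/+ libraries and was lower, 56.8 to 80.7 CPM, in all CREBBP+/- libraries (log2 fold change -0.73, SE 0.12, edgeR adjusted p = 0.395). Such non-overlap was seen for 1.02% of the genes tested (0.594% lower in CREBBP+/-, 0.426% higher) and for none of the 9. The B cell markers MS4A1, CD79A, CD79B, PAX5 and CD22 were all tested, and they summed to 1860 to 3360 CPM for CREBBP+/+, with 1990 to 3380 CPM for CREBBP+/-. Markers of T, NK, myeloid and erythroid cells were at or near 0, apart from TRAC (7.13 to 27.6 CPM) among the T cell markers, and CD3D and CD2 had no count in any library. The 4 stromal markers, with COL1A2 at 0, summed to at most 2.66 CPM in Het_9 and Het_10 and at most 0.496 CPM in the other libraries. NCAM1, an NK cell marker, had 3.95 and 2.61 CPM in Het_9 and Het_10 and at most 0.18 CPM elsewhere, and the part of these markers in the results below was not tested.

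By their whole transcriptome the libraries fell into 3 clusters, of which A and B cross the genotypes and C holds CREBBP+/- libraries only. Cluster A held WT_1, WT_2 and Het_8, cluster B held WT_3, WT_4, WT_5, Het_6 and Het_7, and cluster C held Het_9 and Het_10. Average-linkage clustering without the 10 cytokine genes, their pathway lists and CREBBP, cut at a preset 3 groups, gave the same clusters. It kept 11872 of the 11961 genes tested, so it is not an independent check of the clusters or their number. BCL6, a germinal centre repressor, ran from 241 to 318 CPM in cluster A, 526 to 611 in B and 639 to 664 in C. PRDM1, a driver of plasma cell differentiation, ran from 1.79 to 3.71 CPM in A, 39.6 to 66.5 in B and 9.27 to 10.8 in C. The epithelial gene EPCAM also moved with the clusters, from 1.42 to 13.7 CPM in A, 19.8 to 26.7 in B and 22.9 to 23.1 in C. The other epithelial markers examined, KRT8, KRT18 and KRT19, had 1, 5 and 0 counts in all libraries together. The part of EPCAM in the differences between clusters was not tested. Because the clusters were found from expression, values are compared between them as a description, without a test, and cluster C cannot be told apart from the CREBBP+/- label. In bulk RNA, fewer cells that express a gene and less RNA per cell cannot be told apart.

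Upstream sequences are shown for TNF, LTA and LTB, neighbours on chromosome 6 that were all higher in cluster A than in cluster B, and for CCL22, which was lowest in 2 of that cluster's libraries. They come from RefSeq (GRCh38.p14), 5′ to 3′ on the strand of the gene. Each stops before both the GENCODE start of the gene and the RefSeq start nearest to it. LTA and LTB have 2 RefSeq windows each, and starts further from the GENCODE start were not considered. Capitals mark a match to the NF-kappaB consensus (CCL22) or the TATA box letters TATAAA (TNF). 
TNF, chr6:31575315-31575564, plus strand: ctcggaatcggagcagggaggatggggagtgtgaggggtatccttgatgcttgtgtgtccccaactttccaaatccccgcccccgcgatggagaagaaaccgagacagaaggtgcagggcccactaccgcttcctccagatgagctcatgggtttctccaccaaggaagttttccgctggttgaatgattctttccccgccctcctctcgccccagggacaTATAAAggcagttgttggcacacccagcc
LTA, chr6:31571849-31572053, plus strand: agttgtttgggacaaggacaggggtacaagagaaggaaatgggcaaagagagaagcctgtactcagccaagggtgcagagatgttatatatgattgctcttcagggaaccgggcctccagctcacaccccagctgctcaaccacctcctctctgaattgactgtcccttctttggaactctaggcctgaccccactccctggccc
LTB, chr6:31582523-31582675, minus strand: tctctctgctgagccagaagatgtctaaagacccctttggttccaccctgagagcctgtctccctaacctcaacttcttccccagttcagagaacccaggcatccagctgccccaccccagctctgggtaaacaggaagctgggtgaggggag
CCL22, chr16:57358533-57358782, plus strand: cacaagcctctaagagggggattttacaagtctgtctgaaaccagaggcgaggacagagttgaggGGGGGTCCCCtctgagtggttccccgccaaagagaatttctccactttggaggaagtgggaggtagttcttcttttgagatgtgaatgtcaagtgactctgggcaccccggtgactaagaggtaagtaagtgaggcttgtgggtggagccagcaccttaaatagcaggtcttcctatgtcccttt

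Of the 10 genes, 7 have in that source a promoter window of 300 bases (250 before and 50 after a start), and CCL4, CCL5 and CCL17 have none. Where a gene has several windows, such as 3 for CCL3, only the window nearest its GENCODE start was searched. On both strands, the NF-kappaB consensus was found in the windows of CCL22, LTB and IL6 and in 5.91% of all 35116 windows. The LTB match lies within the stretch that GENCODE annotates as transcribed, where the surrounding bases read aggggtgtgcGGAAAGTCCCagccaggtgt with the match in capitals. TATAAA was found in the windows of TNF, CCL3 and IL10 and in 11.5% of all windows. The CREB site TGACGTCA (1.85% of windows) and the AP-1 site TGANTCA (7.71%) had no match in the 7 windows, and the shorter CREB core TGACG (24.6%) had 2 matches, both for IL6. A match is a run of letters and says nothing of binding in these cells.

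TNF had the highest median level of the 10 per length, and its high values lay in cluster A in both genotypes. TNF (ENSG00000232810, chromosome 6, 31575565 to 31578336) encodes the inflammatory cytokine tumour necrosis factor. It stood at 227, 279, 29.0, 51.4 and 30.9 CPM in WT_1 to WT_5 and at 58.0, 40.2, 351, 57.4 and 94.8 CPM in Het_6 to Het_10. WT_1, WT_2 and Het_8 were thus far above the other 7 libraries, which mixed both genotypes. Means were 123 ± 120 and 120 ± 130 CPM in CREBBP+/+ and CREBBP+/- libraries (SD, n = 5 each), with a log2 fold change of -0.04 (SE 0.80, 95% confidence interval -1.80 to 1.72, edgeR adjusted p = 0.997). The sign of this value turned with single libraries. It was -0.98 without Het_8 and 0.51 without WT_2.

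Inside the clusters the TNF point estimate was above 0. Het_8 had 351 CPM against 227 and 279 CPM in WT_1 and WT_2, a difference of 0.48 in mean log2 CPM. In cluster B the difference was 0.43, and Het_6 (58.0 CPM) was above all 3 CREBBP+/+ libraries while Het_7 (40.2 CPM) was below WT_4. With the clusters as a term the log2 fold change was 0.43 (SE 0.23, edgeR adjusted p = 0.472). Without the 3 libraries of cluster A, a fit added after the values were seen, it was 0.76 (edgeR adjusted p = 0.339). In neither fit did TNF pass the threshold of 0.05.

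LTA and LTB, the subunits of lymphotoxin, were also higher in cluster A than in B, but Het_8 ranked differently in them. LTA (ENSG00000226979, chromosome 6, 31572054 to 31574324) had 134, 94.8, 25.7, 56.8 and 35.6 CPM in WT_1 to WT_5 and 41.9, 30.7, 60.4, 38.6 and 66.3 CPM in Het_6 to Het_10. LTB (ENSG00000227507, chromosome 6, 31580525 to 31582522), the membrane-anchoring subunit, had 72.5, 52.2, 7.66, 24.0 and 10.2 CPM and 9.98, 9.21, 33.9, 16.2 and 28.5 CPM in the same order. WT_1 was the highest library for both, and within cluster A Het_8 was the lowest for both although it was the highest for TNF. Het_10 was above Het_8 in LTA (66.3 and 60.4 CPM), so clusters A and C overlapped there.

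The ratio of TNF to LTA was highest in Het_8, a single library, and was not tested. Its log2 was 2.54 in Het_8, 0.76 and 1.56 in WT_1 and WT_2, -0.21 to 0.47 in cluster B, and 0.57 and 0.51 in Het_9 and Het_10. The ratio of LTB to LTA varied less, from -2.07 to -0.84 on the log2 scale, and was highest in cluster A (-0.89 to -0.84). The log2 fold changes between genotypes were -0.54 for LTA (SE 0.42, interval -1.47 to 0.39) and -0.77 for LTB (SE 0.63, interval -2.15 to 0.62), both with an edgeR adjusted p of 0.988. Without WT_1 they were -0.16 and -0.26, and without cluster A they were 0.18 and 0.20, on the other side of 0.

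**Figure D1:**
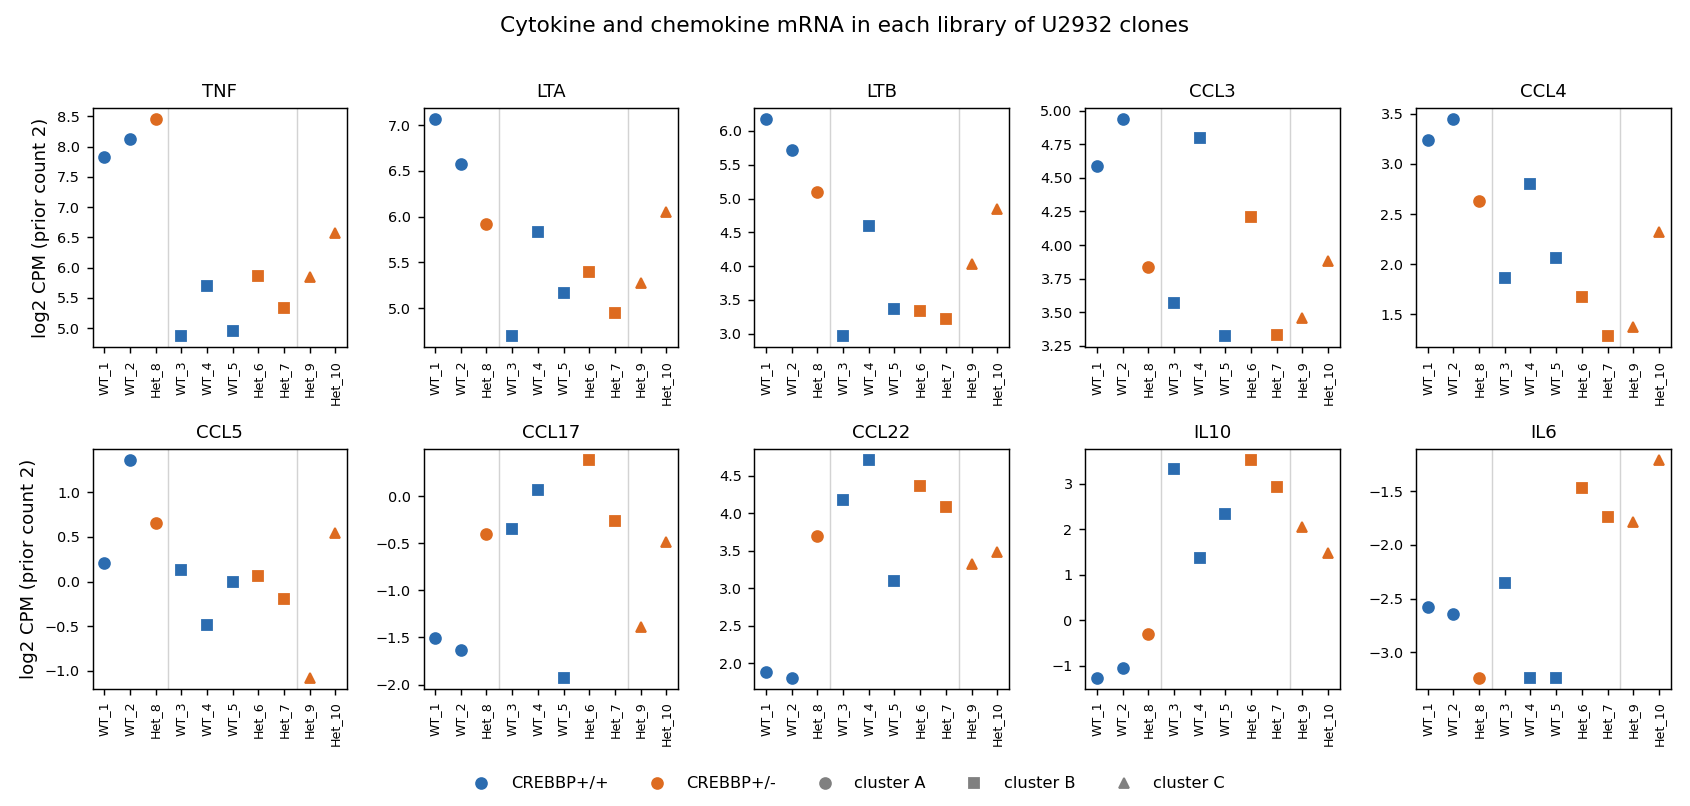
Log2 CPM (vertical axis, prior count 2) of each of the 10 genes in each library (horizontal axis), 1 point per library, with libraries ordered by cluster and vertical lines between clusters. For TNF, LTA and LTB the circles on the left (cluster A) lie above the squares (cluster B), for IL10 they lie below them, and blue and orange points of both genotypes mix within most panels.

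The 3 ligand genes differed more between clusters A and B than the genes around them. Within 200 kb of the start of LTA, TNF or LTB lie 31 other protein-coding genes of the table, of which 20 were tested. Their mean log2 CPM in cluster A minus that in cluster B ran from -0.77 to 0.48, against 1.32 for LTA, 2.80 for TNF and 2.17 for LTB. The highest minus the lowest library was 0.24 to 1.29 log2 units in the 20 neighbours and 2.38, 3.59 and 3.23 in LTA, TNF and LTB. Of the neighbours, ATP6V1G2-DDX39B and SAPCD1 were above cluster B in all cluster A libraries, and 5 were below it, beside 21.8% above and 23.9% below of all genes tested. Read-through genes such as ATP6V1G2-DDX39B share reads with their parts, so their counts are uncertain.

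**Figure D2:**
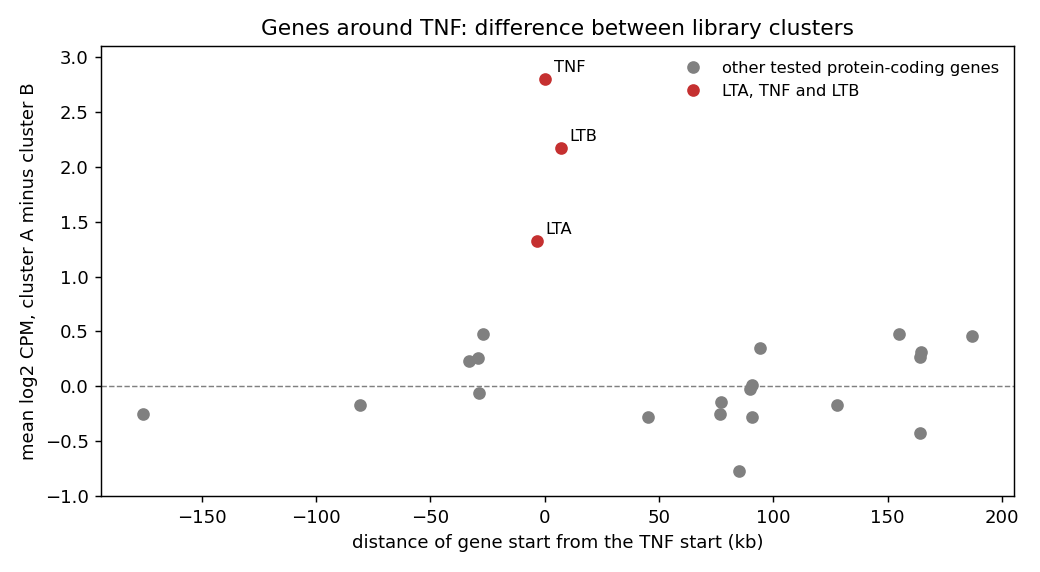
Each point is a tested protein-coding gene within 200 kb of TNF, with the distance of its start from the TNF start in kb on the horizontal axis and the mean log2 CPM of cluster A minus that of cluster B on the vertical axis. LTA (1.32), LTB (2.17) and TNF (2.80) lie above the other genes, which run from -0.77 to 0.48.

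CCL4 was the one tested gene of the 9 with an unadjusted p under 0.05 between genotypes, and it did not pass after adjustment. CCL4 (ENSG00000275302, chromosome 17, 36103827 to 36105621) encodes a chemokine that attracts T cells and monocytes. It had 9.36, 10.8, 3.52, 6.87 and 4.06 CPM in WT_1 to WT_5 and 3.07, 2.31, 6.10, 2.48 and 4.89 CPM in Het_6 to Het_10. The groups overlapped, but within cluster A Het_8 was below WT_1 and WT_2, and within cluster B both Het_6 and Het_7 were below WT_3, WT_4 and WT_5. Means were 6.92 ± 3.19 and 3.77 ± 1.65 CPM (SD, n = 5 each), with a log2 fold change of -0.87 (SE 0.39, interval -1.72 to -0.02, edgeR adjusted p = 0.977).

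The estimate for CCL4 stayed below 0 when any 1 library was left out (-1.11 to -0.65). With the clusters as a term it was -0.79 (SE 0.27, edgeR adjusted p = 0.314). That 1 gene of 9 stands beside 4.98% of all genes tested under that p (2.6% lower and 2.38% higher in CREBBP+/-), and beside 12.7% in the fit with the clusters. No gene tested passed the edgeR threshold (0.0%, 0 of 11961), and DESeq2, which called 34 genes (0.26% of those it adjusted), called none of the 10 (adjusted p = 0.664 for CCL4).

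CCL3, a related chemokine that acts through CCR1 among other receptors, overlapped between all clusters. CCL3 (ENSG00000277632, chromosome 17, 36088256 to 36090169) had 24.0, 30.7, 11.8, 27.7 and 9.90 CPM in WT_1 to WT_5 and 18.3, 9.98, 14.3, 10.9 and 14.6 CPM in Het_6 to Het_10. WT_4 stood with WT_1 and WT_2 near the top, WT_3 lay among the CREBBP+/- libraries, and WT_5 was the lowest of all 10. The log2 fold change was -0.61 (SE 0.32, interval -1.32 to 0.10, edgeR adjusted p = 0.986). Within cluster A the difference in mean log2 CPM was -0.92, and within cluster B it was -0.13.

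Near-identical copies of both genes lie on the same chromosome, so reads could be split between them. CCL3L3 averaged 8.21 ± 3.73 and 5.01 ± 1.61 CPM in CREBBP+/+ and CREBBP+/- libraries, and CCL4L2 averaged 14.3 ± 8.97 and 6.43 ± 2.29 CPM (SD, n = 5 each). Per length the median of CCL4L2 was 5.64 CPM per kb, against 2.49 for CCL4. Between genotypes CCL4L2 gave a value of -1.15 on the log2 scale (SE 0.43, edgeR adjusted p = 0.977). With the counts of each pair summed, a fit added after the values were seen, the log2 fold change was -0.64 for CCL3 with CCL3L3 and -1.05 for CCL4 with CCL4L2 (edgeR adjusted p = 0.977). Summing therefore moved neither value across the threshold.

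CCL5, a chemokine of activated lymphocytes, was low, with 4 to 45 counts per library. CCL5 (ENSG00000271503, chromosome 17, 35871491 to 35880793) stood at 1.05, 2.45, 0.992, 0.604 and 0.885 CPM in WT_1 to WT_5 and at 0.938, 0.772, 1.47, 0.367 and 1.35 CPM in Het_6 to Het_10. All 3 libraries of cluster A (1.05 to 2.45 CPM) were above the 5 of cluster B (0.604 to 0.992 CPM). The log2 fold change was -0.27 (SE 0.45, interval -1.27 to 0.73, edgeR adjusted p = 0.988) and became 0.17 without WT_2.

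CCL22 and CCL17, the CCR4 ligands, overlapped between clusters A and B, with a mean log2 CPM in A minus that in B of -1.63 and -0.75. CCL22 (ENSG00000102962, chromosome 16, 57358783 to 57366189) had 3.57, 3.38, 18.0, 26.1 and 8.38 CPM in WT_1 to WT_5 and 20.6, 16.9, 12.9, 9.92 and 11.1 CPM in Het_6 to Het_10. WT_1 and WT_2 were the 2 lowest libraries, while Het_8 of the same cluster stood at 12.9 CPM, within the range of cluster B (8.38 to 26.1 CPM). The difference between Het_8 and the mean of WT_1 and WT_2 was 1.86 in log2 CPM, and within cluster B the genotypes differed by 0.24. Over all libraries the log2 fold change was 0.26 (SE 0.53, interval -0.91 to 1.44, edgeR adjusted p = 0.988), and it was 0.03 without WT_1 or WT_2, 0.77 without WT_4 and -0.25 without cluster A.

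CCL17 (ENSG00000102970, chromosome 16, 57404767 to 57416063) was near the limit of detection, with 3 to 28 counts per library. It had 0.246, 0.218, 0.676, 0.934 and 0.156 CPM in WT_1 to WT_5 and 1.19, 0.723, 0.653, 0.275 and 0.605 CPM in Het_6 to Het_10. WT_1, WT_2, WT_5 and Het_9 were the 4 lowest libraries, each with 3 or 4 counts. The log2 fold change was 0.64 (SE 0.54, interval -0.56 to 1.84, edgeR adjusted p = 0.988). The log2 ratio of CCL22 to CCL17 CPM, not corrected for length, varied from 3.86 in WT_1 to 5.75 in WT_5.

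Within cluster A the genotypes are compared through the single library Het_8. Het_8 was outside the range of WT_1 and WT_2 in 8 of the 9 genes tested, above it for TNF, CCL22, CCL17 and IL10 and below it for LTA, LTB, CCL3 and CCL4. Of all genes tested 76.6% lay outside that range (38.3% above and 38.3% below), so the count is near the background. CCL4 was the one gene of the 9 for which Het_6 and Het_7 also lay outside the range of WT_3 to WT_5, where 36.2% of all genes tested did (17.8% above and 18.4% below).

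IL10 varied most of all 9 genes tested. IL10 (ENSG00000136634, chromosome 1, 206767602 to 206774541) had 0.308, 0.382, 9.96, 2.47 and 4.95 CPM in WT_1 to WT_5 and 11.3, 7.47, 0.708, 4.04 and 2.70 CPM in Het_6 to Het_10. The libraries of cluster A, with 5 to 13 counts, were below all 7 others. WT_3, Het_6 and Het_7 were the 3 highest libraries, so the top of the range held both genotypes. The highest and lowest libraries differed by 4.79 log2 units, a span larger than that of 97.8% of the genes tested (median span 0.83).

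Between genotypes the log2 fold change of IL10 was 0.54 (SE 0.91, interval -1.49 to 2.56, edgeR adjusted p = 0.988). It ran from 0.05 without Het_6 to 1.37 without WT_3. Within clusters the CREBBP+/- libraries were higher by 0.86 (A) and 0.87 (B) in mean log2 CPM, and with the clusters as a term the value was 0.76 (SE 0.41, edgeR adjusted p = 0.475). The wide spread inside cluster B, 2.47 to 11.3 CPM, covered both genotypes.

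IL6 (ENSG00000136244, chromosome 7, 22725884 to 22732002), a growth factor for plasma cells, had 1, 1, 2, 0 and 0 counts in WT_1 to WT_5 and 6, 4, 0, 2 and 7 counts in Het_6 to Het_10. A count of 0 allows up to 3 counts, which is 0.155 to 0.165 CPM in WT_4, WT_5 and Het_8, and this limit covers counting error only. Het_6, Het_7 and Het_10 were the libraries with more than 3 counts. In a fit without the filter the edgeR adjusted p was 0.83, and the unadjusted p was under 0.05, as for 4.86% of all genes in that fit. No fold is given, because all CREBBP+/+ libraries were under that limit.

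Across the 9 genes tested, 6 had a log2 fold change below 0 and 3 above 0, with a median of -0.27, where 52.4% of all genes tested were below 0 and their median was -0.01. None of the 9 passed the threshold in edgeR, and the adjusted p ran from 0.977 to 0.997. The intervals of 8 of them included 0, and the narrowest of these was that of CCL3 (-1.32 to 0.10). Cluster A did not overlap cluster B in 5 of the 9 genes, above it for TNF, LTA, LTB and CCL5 and below it for IL10. That was so for 45.8% of all genes tested (21.8% above and 23.9% below). Cluster C was below cluster A for TNF, LTB and CCL4 and above it for IL10, 4 of the 9, where 60.0% of all genes tested did not overlap (28.9% below, 31.1% above). The ranges of clusters C and B overlapped for all 9, where 40.3% of all genes tested did not overlap (19.3% above and 21.0% below).

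**Figure D3:**
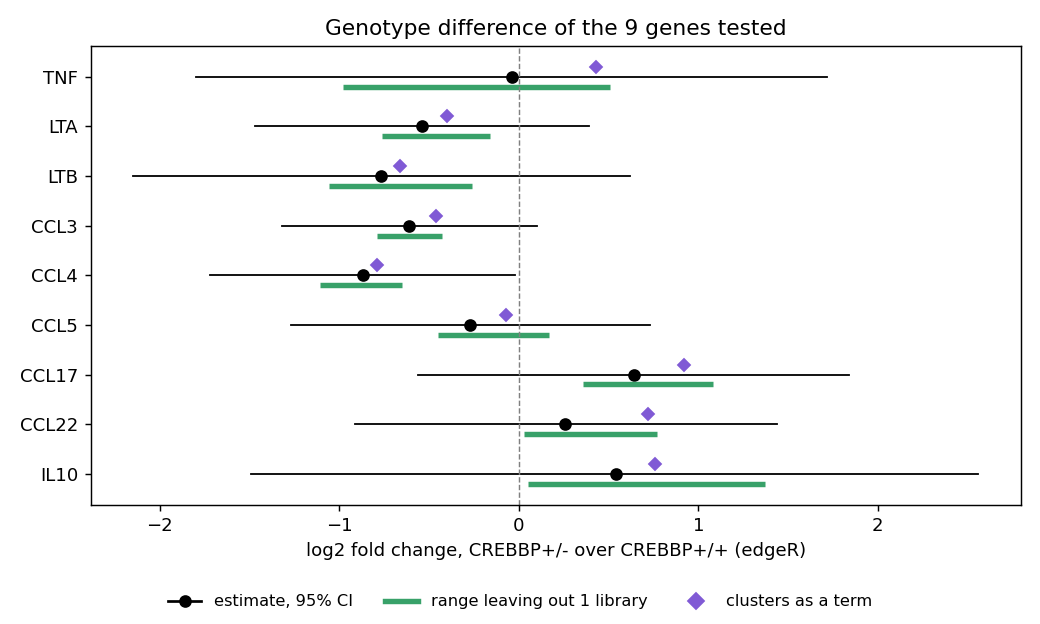
Log2 fold change of CREBBP+/- over CREBBP+/+ libraries (horizontal axis) for the 9 genes tested (vertical axis): black points with lines are the edgeR estimate and its 95% confidence interval, green bars the range when 1 library is left out, and purple diamonds the estimate with library clusters as a term. Every interval but that of CCL4 (-1.72 to -0.02) includes 0, and the green bars of TNF and CCL5 lie on both sides of 0.

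Levels were compared between genes per length, as CPM per kb of exon in GENCODE. The medians over the 10 libraries were 34.4 for TNF, 28.4 for LTA, 13.1 for LTB, 9.65 for CCL3, 4.12 for CCL22 and 2.49 for CCL4. Below these stood CCL17 at 1.01, IL10 at 0.776, CCL5 at 0.708 and IL6 at 0.0176 CPM per kb. LTA exceeded LTB in all 10 libraries, CCL3 exceeded CCL22 in all 10, and CCL5 exceeded IL6 in all 10. TNF exceeded LTA in 8 of 10 libraries, with LTA higher in WT_4 (32.7 and 30.6 CPM per kb) and WT_5 (20.5 and 18.4). CCL22 exceeded CCL4 in 8 libraries and CCL4 exceeded CCL17 in 9. The order was least kept between LTB and CCL3 (5 of 10 libraries), CCL17 and IL10 (5 of 10) or IL10 and CCL5 (6 of 10), and the ranges over libraries overlapped for every pair of neighbours but CCL5 and IL6. The exon models behind the counts are not stated, so levels per length are approximate.

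Of 22 genes for receptors of these ligands, their signal transducers and the enzymes that shed TNF, 17 were tested and none passed the edgeR threshold. Of the 17, 1 had an unadjusted p under 0.05, beside 4.98% of all genes tested. CCR3 had no count, and CCR1 had 2 and the lymphotoxin receptor LTBR 3 counts in all libraries together, so these receptors were at or near 0 in these cells. CCR4, with at most 22 counts in a library and 81 in all, was low and did not pass the filter. The smallest p was that of IL6R, the IL6 receptor chain, with 0.857 ± 0.431 and 1.71 ± 0.366 CPM (SD, n = 5 each, log2 fold change 0.99, SE 0.39, edgeR adjusted p = 0.977). Next came RHBDF2, a partner of the TNF-shedding protease (-0.30, SE 0.14), TNFRSF14, a receptor of lymphotoxin alpha (-0.47, SE 0.27), and IL10RB (-0.23, SE 0.17). The median of the 17 was 0.02.

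Of these 17 genes, 7 were lower in every library of cluster A than in any of cluster B and 1 was higher, beside 23.9% and 21.8% of all genes tested. Of the IL10 receptor pathway, IL10RA, STAT3, SOCS3 and the kinase JAK1 (at most 121 CPM in A) were among the 7, while the kinase TYK2 overlapped (154 to 208 and 140 to 212 CPM). The genes of this pathway were picked for display after their values were seen. IL10RA, the ligand-binding chain, had 71.9, 72.8 and 49.0 CPM in WT_1, WT_2 and Het_8, 279 to 407 CPM in cluster B and 162 and 182 CPM in Het_9 and Het_10. STAT3, the transcription factor the receptor activates, had 47.2 to 59.3 CPM in cluster A and 66.7 and 80.6 CPM in C. In cluster B it had 192, 165 and 177 CPM in WT_3, Het_6 and Het_7 but 85.3 and 94.6 CPM in WT_4 and WT_5.

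SOCS3, a feedback inhibitor induced by STAT3, split cluster B in the same way. It had 54.1, 32.9 and 25.3 CPM in WT_3, Het_6 and Het_7, 1.59 and 0.729 CPM in WT_4 and WT_5, and at most 0.551 CPM in the other 5 libraries, with 0 to 2 counts in cluster A. The 3 libraries highest in SOCS3 and STAT3 were the 3 highest in IL10. IL10RA did not split cluster B so (314 CPM in Het_7 and 323 CPM in WT_5). JAK1 was lower in those 3 libraries (at most 180 CPM) than in WT_4 and WT_5 (204 and 219 CPM). Outside this pathway, NFKBIA split the same way (55.8 to 58.7 against 42.0 and 35.2 CPM). IL16 split the opposite way (64.0 to 71.7 against 126 and 155 CPM). Whether the split is particular to this pathway was not tested. IL10RB, the partner chain of IL10RA, was higher in cluster A than in B, with 10.4 to 11.9 CPM in cluster A and 6.70 to 10.2 CPM in B. Between genotypes the log2 fold changes were -0.16 for IL10RA, 0.15 for STAT3 and 0.07 for SOCS3 (edgeR adjusted p = 0.988 to 0.997). All 3 changed sign when 1 library was left out, over -0.39 to 0.15, -0.11 to 0.55 and -0.77 to 4.29.

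**Figure D4:**
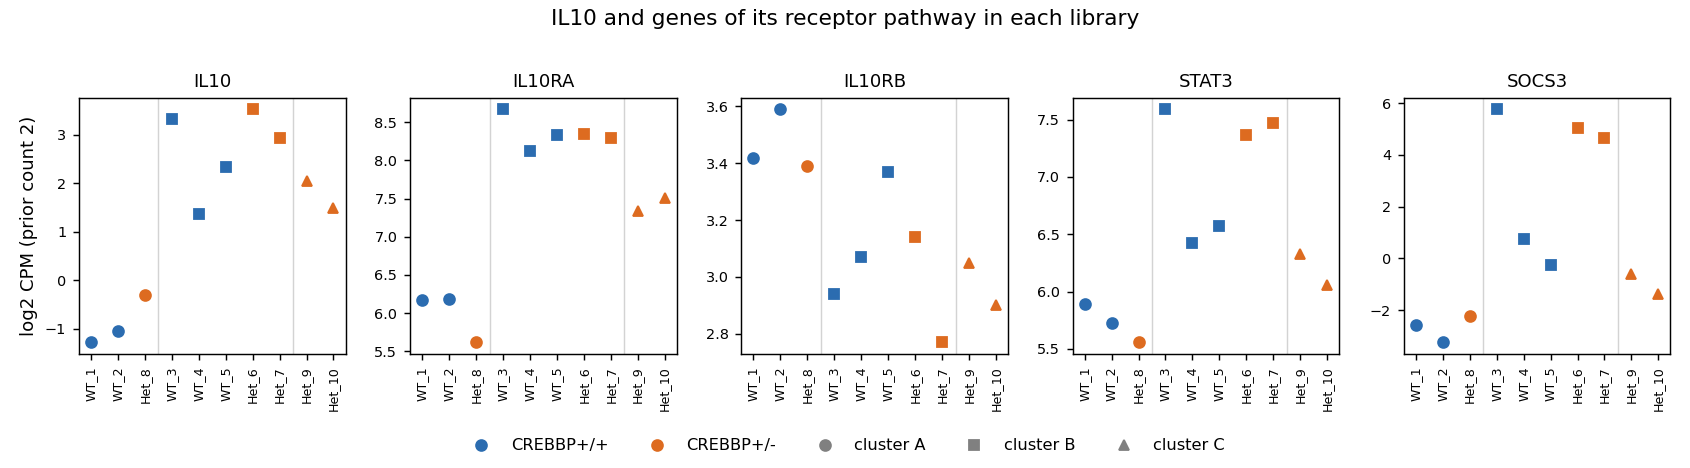
Log2 CPM (vertical axis, prior count 2) of IL10 and 4 genes of its receptor pathway in each library (horizontal axis), 1 point per library, ordered by cluster with vertical lines between clusters. IL10, IL10RA, STAT3 and SOCS3 are lowest in cluster A on the left, and WT_3, Het_6 and Het_7 are the 3 highest libraries for IL10, STAT3 and SOCS3.

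Among 26 genes of transcription factors and regulators upstream of cytokine genes, 25 were tested and none passed (median log2 fold change -0.06). Of the 25, 1 had an unadjusted p under 0.05, beside 4.98% of all genes tested. That gene was JUN, a subunit of AP-1, with 1.54 to 4.34 CPM in 7 libraries against 18.3, 17.2 and 18.7 CPM in the remaining Het_8, Het_9 and Het_10 (log2 fold change 2.01, SE 0.62, edgeR adjusted p = 0.861). MAP3K14, the kinase of the alternative NF-kappaB pathway, had -0.21 (SE 0.11), FOS 0.68 (SE 0.35) and NFKBIE, an NF-kappaB inhibitor, -0.27 (SE 0.15). NFKBIA, the feedback inhibitor and target of NF-kappaB, was highest in Het_8 (145 CPM), next in WT_1 and WT_2 (71.0 and 79.1 CPM) and lower in all other libraries (28.7 to 58.7 CPM). It was named after its values were seen, and its highest library is also that of TNF. Other NF-kappaB targets of the same list were mixed. TRAF1 (25.9 to 28.3 against 52.1 to 75.7 CPM) and BIRC3 (140 to 146 against 209 to 399 CPM) were lower in cluster A than in B. TNFAIP3 had 43.0 to 55.0 CPM in A and 27.2 to 43.8 CPM in B, which overlapped, with a mean log2 CPM 0.57 higher in A. NFKBIE also overlapped (66.4 to 79.9 CPM in A and 48.0 to 80.6 CPM in B). Of the 25 genes tested, 3 were above cluster B in all of cluster A and 6 below, beside 21.8% and 23.9% of all genes tested.

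All 9 genes whose products control the decay of cytokine mRNAs were tested and none passed, with a median of -0.09. None had an unadjusted p under 0.05, beside 4.98% of all genes tested. ZFP36L1, an mRNA-destabilising protein, had 281 ± 63.3 and 224 ± 67.8 CPM (SD, n = 5 each, log2 fold change -0.33, SE 0.21). The others named by their p were RC3H2 (0.23, SE 0.16), ELAVL1 (-0.10, SE 0.08) and ZFP36L2 (-0.10, SE 0.09).

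Of 50 other ligand genes, 33 were too low to test, and CCL1, CCL2, CCL19, CCL20, IL2, CSF2 and IL1B had no count in any library. None of the 17 tested passed, and the median was 0.14 (-0.01 over all genes tested). An unadjusted p under 0.05 was seen for 2 of them, both lower in CREBBP+/-. That stands beside 4.98% of all genes tested (2.6% lower and 2.38% higher). IL16, a chemoattractant of CD4 T cells, had 201, 178, 71.7, 126 and 155 CPM in WT_1 to WT_5 and 70.2, 64.0, 109, 69.9 and 94.0 CPM in Het_6 to Het_10. WT_3 was the CREBBP+/+ library that overlapped the CREBBP+/- range (log2 fold change -0.85, SE 0.26, edgeR adjusted p = 0.842). MIF, a constitutively made inflammatory mediator, had -0.33 (SE 0.14, edgeR adjusted p = 0.977). TNFSF13, the B cell survival factor APRIL, ran from 4.68 to 5.87 CPM in cluster C and 0.26 to 2.03 CPM in A and B, with a log2 fold change of 1.18 (SE 0.62). That of IL7, a lymphocyte growth factor, was 1.93 (SE 1.26) and ran from 1.62 to 4.03 when 1 library was left out. IL7 averaged 0.652 ± 1.15 and 2.58 ± 1.56 CPM in CREBBP+/+ and CREBBP+/- libraries (SD, n = 5 each). Its lowest level was 0 CPM in cluster A and in cluster B, so its fold change rests in part on values at the limit of detection.

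Genes with the most similar pattern were found by the root mean square difference of log2 CPM over the 10 libraries, each gene centred on its mean, among 11960 genes, for the genes whose span was at least 2 log2 units (all tested but CCL3). For CCL4 the closest were PLK3 (0.24), its copy CCL4L2 (0.27) and FERMT3 (0.31), and LTA had rank 9 (0.37). For LTB the closest were ADAM8 (0.36), CHST15 (0.41) and CEACAM21 (0.41), followed by LTA (0.42). TNF was nearest to AFF3 (0.36), SLC7A7 (0.40) and MPEG1 (0.43), and LTB had rank 25 (0.60).

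CCL22 had rank 29 for CCL17, and CCL17 had rank 31 for CCL22, with a difference of 0.51. CCL22 was nearest to CRYL1 (0.35), KLF15 (0.37) and GALNT12 (0.37), and CCL17 to CACNB3 (0.33), SPRED2 (0.36) and LAMA5 (0.39). IL10 was nearest to PHACTR2 (0.30), ACOT4 (0.38) and CMPK2 (0.47). LTA was close to PLK3 (0.33) and PPAN-P2RY11 (0.34). CCL5 was nearest to CASTOR2 (0.28), FAM186B (0.36) and SRP54-AS1 (0.36). These distances describe 10 libraries that share 3 clusters, and many genes follow the clusters.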

How the data were processed

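For each of 10 libraries the authors deposited unnormalized counts by Ensembl identifier, in which values from 10000 upward keep only 4 significant digits. STAR, featureCounts, FastQC, DESeq2 and the build GRCh38 were used, per the submitters' processing notes. Counting options, annotation and strandedness were not stated there. Het_6 to Het_10 match no labelled clone number and were used as members of their group. Symbols were matched for 20804 of 21174 identifiers (98.3%), with coordinates from GENCODE 44 (GRCh38). Genotypes were compared with the quasi-likelihood test of edgeR 4.0.16 (R 4.3.3; TMM, filterByExpr with minimum count 10 and total 15, 11961 genes), with Benjamini-Hochberg adjustment over all genes and a threshold of 0.05, two-sided. The fit was tested on simulated data. Log2 CPM used a prior count of 2. Alternatives were DESeq2 1.42.0, limma-voom (limma 3.58.1), other scalings and filters, clusters as a term and libraries left out. Named genes were all 10, the 4 smallest p of each list, the 3 most similar genes, and neighbours within 200 kb. The genes and lists were chosen with earlier results of these data known. Some genes that these rules would name are not reported here.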

Additional observations from a re-analysis of the deposited data

Results flagged for a closer look

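In IL6, Het_8 stood apart from the other CREBBP+/- libraries, at -3.24 log2 CPM (0 counts) against -1.79 in the next library, a gap of 0.72 of the group's range where 0.71 is the limit. With 22 groups of values examined, chance alone puts about 1 in 20 past that limit, and the value rests on counts of 0 to 7.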

How the results depend on the processing

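Across 20 alternatives none of the 10 genes passed the threshold in any fit that gave it an adjusted p. CCL3, CCL4, CCL17 and IL10 kept the sign of their log2 fold change in every alternative that fitted them, over -0.79 to -0.28, -1.11 to -0.58, 0.30 to 1.08 and 0.05 to 1.37. The number of genes past the threshold, 0 in edgeR (596 at an unadjusted p under 0.05), was 34 with DESeq2, 1 without WT_1, WT_2 and Het_8 and 0 to 1 leaving out 1 library (1 without Het_6), and 0 in the other alternatives. For TNF the sign reversed in 10 alternatives: 0.14 with limma-voom, 0.43 with clusters as a term, 0.28 without Het_9 and Het_10, and 0.76 without WT_1, WT_2 and Het_8. Leaving out 1 library gave -0.98 to 0.51 for TNF and -0.45 to 0.17 for CCL5. Without WT_1, WT_2 and Het_8 the signs of CCL5 (0.08), CCL22 (-0.25), LTA (0.18) and LTB (0.20) also reversed. The cause was not tested. IL6 was fitted only without a filter and with DESeq2, which gave no adjusted p for it. No paired analysis was possible because the columns of CREBBP+/- libraries carry numbers that no labelled clone has. Depth limits IL6, CCL17 and CCL5, with at most 7, 28 and 45 counts per library.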

Other observations

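FCMR, the receptor for the Fc part of IgM, whose start lies 148.7 kb from that of IL10, had its high libraries where IL10 was low. It had 21.9, 19.2 and 5.93 CPM in WT_1, WT_2 and Het_8 and 0.675 to 2.36 CPM in the other 7 libraries. Its log2 fold change between genotypes was -2.29 (edgeR adjusted p = 0.977). Near CCL17 and CCL22, ADGRG5 and CCDC102A were lower in cluster A than in cluster B in every library, by 5.00 and 2.88 in mean log2 CPM, while CCL22 itself overlapped between these clusters. ADGRG5 had 1, 2 and 2 counts in WT_1, WT_2 and Het_8, so the size of its difference depends on the prior count. Of the 9 neighbours tested there, 4 were below cluster B in all of cluster A and 1 above. Of all genes tested, 23.9% were below and 21.8% above. FCMR, ADGRG5 and CCDC102A were chosen after their values were seen.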
